A study of Mus musculus with 6 samples.

Results

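The expression of 41 genes of the lysosome was examined in tumor-associated macrophages (TAMs), comparing 3 libraries from Pdcd1f/fLysMcre mice with 3 libraries from Pdcd1f/f mice. The genes encode acid hydrolases, cathepsins and other proteases, subunits of the vacuolar proton pump (V-ATPase), lysosomal membrane proteins and regulators of lysosomal genes. They were chosen by symbol from a list, and all 41 were found among the 55421 genes of the count table and passed a filter (10 or more counts in 3 or more libraries) that 14488 genes passed. TAMs were sorted as live CD45+CD11b+F4/80+Ly6G- cells from subcutaneous fibrosarcomas of the MC17-51 line (labelled M17) on day 15 in adult mice. In Pdcd1f/fLysMcre mice, Cre recombinase is expressed from the lysozyme locus and removes floxed Pdcd1, which encodes the inhibitory receptor PD-1, in myeloid cells. Pdcd1f/f mice carry the same floxed alleles and no Cre, so the Cre allele itself also differs between the genotypes. The labels do not say whether a library came from 1 mouse or from pooled mice, so the spread between libraries may be in part technical.

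Lysosomes are acidic organelles in which material taken up by phagocytosis, endocytosis and autophagy is broken down. The V-ATPase pumps protons into the lumen, the low pH activates cathepsins and glycosidases, and membrane glycoproteins such as LAMP1 line the organelle. Transcription factors of the MiT family, such as TFEB, TFE3 and MITF, bind E-box sequences in the promoters of many lysosomal genes. Macrophages are rich in lysosomes, and their cathepsins degrade engulfed cells, process antigens for MHC class II and, when secreted, cut extracellular matrix.

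The E-box CACGTG was searched in the RefSeq promoter windows (GRCm38.p6, 250 bases before to 50 after each annotated start), which were found for 36 of the 41 genes. CACGTG reads the same on both strands. It was present in a window of 12 of the 36 genes (33.3%), against 8.09% of all 27025 genes with a window. The longer form TCACGTG, counted on either strand and contained in the CACGTG count, was present for 11 genes (30.6%), against 4.29% of all genes. Among the 69 genes with a window in a wider list of 91 lysosome and autophagy genes, 24.6% held CACGTG and 21.7% TCACGTG. These matches are letters in a window and not measured binding sites. The stretches below show the densest match, in Lamp1, the match in the channel gene Mcoln1, the match in Atp6v1a, whose libraries were higher in Pdcd1f/fLysMcre mice, and the matches in Lgmn and Sgsh, which were lower. They are upstream stretches outside annotated exons, except for Sgsh, where 30 bases around the match are given, and they are written 5′ to 3′ on the strand of the gene with CACGTG in capitals.
Lamp1 (chr8:13158961-13159160, plus strand): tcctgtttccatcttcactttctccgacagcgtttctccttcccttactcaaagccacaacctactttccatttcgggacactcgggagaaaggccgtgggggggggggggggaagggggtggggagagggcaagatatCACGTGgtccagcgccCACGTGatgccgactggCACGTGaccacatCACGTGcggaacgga
Mcoln1 (chr8:3500319-3500456, plus strand): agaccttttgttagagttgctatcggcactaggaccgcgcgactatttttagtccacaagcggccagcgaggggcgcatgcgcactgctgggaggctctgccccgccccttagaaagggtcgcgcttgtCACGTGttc
Atp6v1a (chr16:44139306-44139459, minus strand): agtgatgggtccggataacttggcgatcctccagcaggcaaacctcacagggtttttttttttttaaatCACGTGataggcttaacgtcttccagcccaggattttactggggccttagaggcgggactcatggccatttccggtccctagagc
Lgmn (chr12:102439093-102439292, minus strand): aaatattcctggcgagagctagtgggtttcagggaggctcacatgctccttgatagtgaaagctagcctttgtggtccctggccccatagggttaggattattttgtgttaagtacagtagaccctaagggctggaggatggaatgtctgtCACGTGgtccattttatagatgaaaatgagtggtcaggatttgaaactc
Sgsh (chr11:119355522-119355551, minus strand): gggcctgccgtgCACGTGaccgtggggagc

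In the Lamp1 window 4 matches began between 61 and 15 bases before the start. The Mcoln1 window held 2 matches, 71 and 45 bases before the start, and the stretch shown holds the more distant. The Lgmn match lay before the second of its RefSeq starts. The 11 genes with TCACGTG in a window had a median log2 fold change between the genotypes of -0.18, with 2 lower past the threshold used below. The 25 genes with a window and none had one of -0.11, with 1 lower past it, against 3.01% lower of all genes. After the correction for GC content and length described below the medians were -0.09 and -0.10, with 3 of the 11 and 10 of the 25 lower, against 7.97% lower of all genes.

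The libraries held between 41833823 and 51417209 counts, and the 41 genes had between 546 and 326672 counts in a library. Deletion of Pdcd1 could not be checked by its own transcript, which had between 7 and 16 counts in the 6 libraries (log2 fold change -0.25, adjusted p = 0.769, edgeR). Lyz2, the gene into which the LysM-Cre allele is inserted, had a log2 fold change of -8.99 in Pdcd1f/fLysMcre libraries, in the direction that the labels imply. Mean normalized counts of this lysozyme gene were 216864 in Pdcd1f/f and 427 in Pdcd1f/fLysMcre libraries. Those of its paralog Lyz1 were 156 and 3625 (log2 fold change 4.54, adjusted p = 8.87e-09, edgeR). Neither is among the 41 genes, and the part of these differences in the values of the 41 was not tested. Macrophage markers were abundant in each library, with a summed level of 4076 to 5329 CPM (counts scaled to the library total) over Adgre1, Itgam, Csf1r, Fcgr1, C1qa and Cd14. Transcripts of Xist and of 4 Y-linked genes were present in each library. The Y-linked sum was 1545 to 1914 normalized counts in Pdcd1f/f and 6267 to 7233 in Pdcd1f/fLysMcre libraries, so the mix of sexes differed between the genotypes, and sex and genotype cannot be told apart. The 5 genes of the list on the X chromosome, Lamp2, Gla, Ids, Atp6ap1 and Tfe3, had a median log2 fold change of -0.02. None passed the threshold used below with edgeR on all 6 libraries of the counts as deposited or with DESeq2, and Ids had an unadjusted p of 0.0124 (edgeR). Lamp2 was lower after a correction for GC content and length. Without Pdcd1f/f replicate 1 and Pdcd1f/fLysMcre replicate 2, Ids was higher (adjusted p = 0.0278, edgeR) and Tfe3 was lower (-0.16, adjusted p = 0.0436, edgeR).

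Among the 41 genes, 4 were lower in Pdcd1f/fLysMcre than in Pdcd1f/f TAMs and none was higher at an adjusted p below 0.05 (edgeR's two-sided quasi-likelihood test, adjusted by Benjamini-Hochberg over the 14488 genes). Of all genes, 3.01% were called lower and 2.42% higher. The 4 genes were Ctsh, Sgsh, Scarb2 and Lgmn, which encode the aminopeptidase cathepsin H, the sulfatase that removes N-linked sulfate from heparan sulfate, the receptor that carries glucocerebrosidase to lysosomes, and legumain, an asparaginyl endopeptidase. Their normalized counts differed from the Pdcd1f/f mean by -26.1% (Sgsh), -23.4% (Ctsh), -17.3% (Scarb2) and -15.6% (Lgmn). DESeq2 on the same genes called 9 of the 41 lower and 1 (Mitf) higher, against 5.64% and 4.94% of all genes, and edgeR without the filter on low counts (1 count in a single library sufficed) called 9 lower and 2 (Mitf and Atp6v1h) higher, against 4.01% and 3.32%. With edgeR and the filter, 16 of the 41 had an unadjusted p below 0.05, 13 with a lower and 3 with a higher level, as had 3505 of the 14488 genes tested. Without Pdcd1f/f replicate 1, 19 of the 41 were called lower and 2 higher, against 11.5% and 10.1% of all genes. Leaving out any other library left between 0 and 2 of the 41 called lower and none higher, against 0.966% to 2.13% and 0.566% to 1.59% of all genes. The log2 fold change was below 0 for 35 of the 41 genes and above 0 for 6, against 50.4% of all genes below 0. The median over the 41 genes was -0.14 on the log2 scale, against -0.0025 over all genes tested. With a library left out it ranged from -0.207 (without Pdcd1f/f replicate 1) to -0.0880 (without Pdcd1f/f replicate 3). The median size of the change, regardless of direction, was 0.158 for the 41 genes and 0.161 for all genes.

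**Figure D1:**
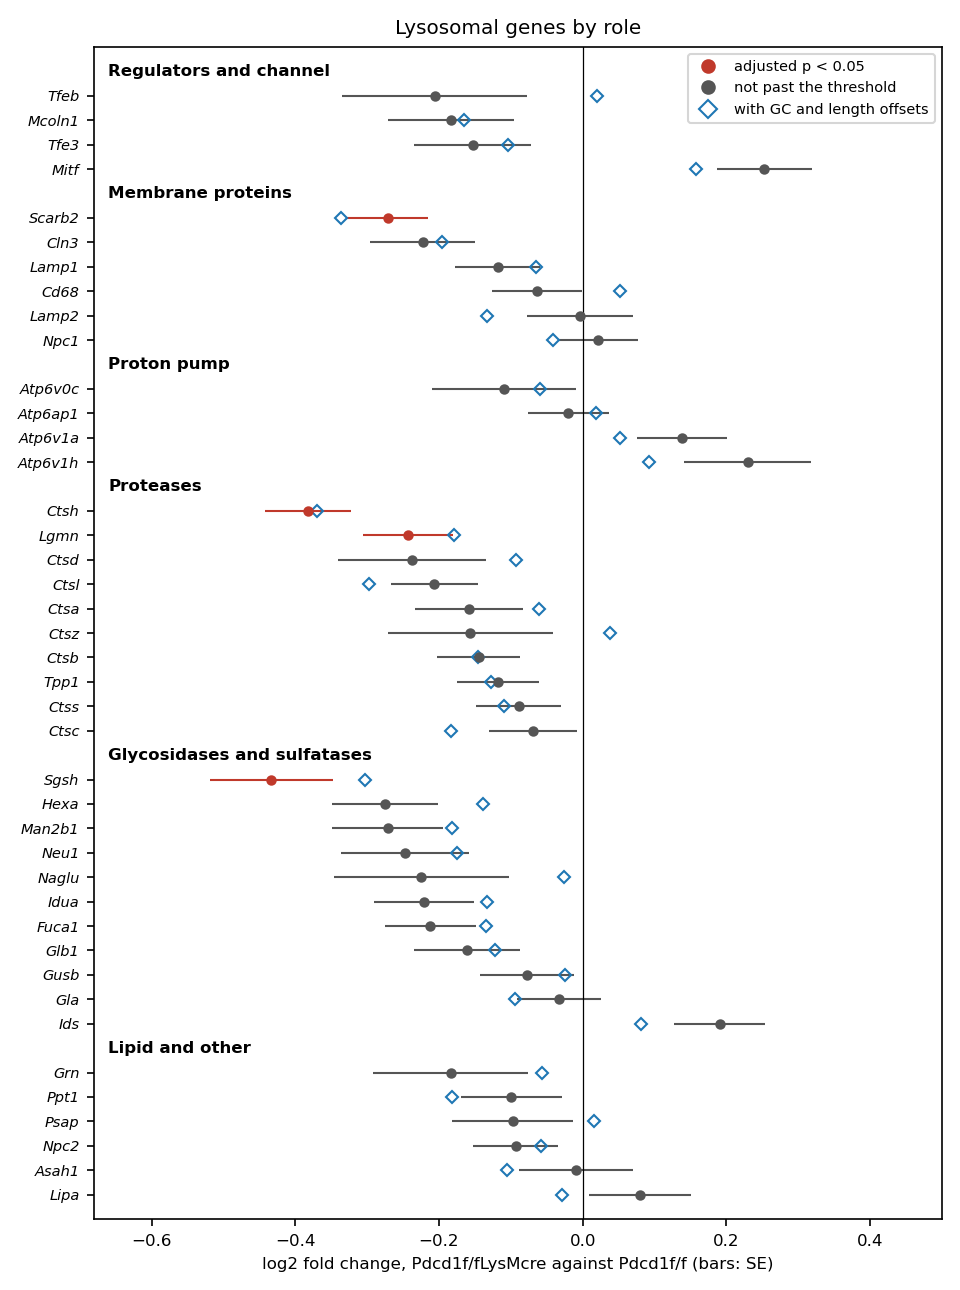
Log2 fold change of each of the 41 lysosomal genes (x axis, Pdcd1f/fLysMcre against Pdcd1f/f, with standard error), grouped by role. Red points are the 4 genes past the threshold, and open diamonds give the value after correction of the counts for GC content and length, where 15 genes were called lower. Of the 41 points 35 lie left of 0, and Mitf, Npc1, Atp6v1a, Atp6v1h, Ids and Lipa lie right of it.

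In 15 of the 41 genes each Pdcd1f/fLysMcre library lay below each Pdcd1f/f library, and in 3 genes, Mitf, Atp6v1a and Ids, each lay above (36.6% lower, against 13.1% lower and 14.1% higher among all genes tested). The 3 Pdcd1f/f libraries were not alike. In replicate 1, 30 of the 41 genes lay below the Pdcd1f/f mean, against 8 in replicate 2 and 11 in replicate 3. In the Pdcd1f/fLysMcre libraries 35, 30 and 33 genes lay below that mean, in the order of their numbers. The median deviation of the 41 genes from the Pdcd1f/f mean was, on the log2 scale, -0.07, 0.03 and 0.05 for the 3 Pdcd1f/f libraries against -0.13, -0.19 and -0.10 for the 3 Pdcd1f/fLysMcre libraries.

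**Figure D2:**
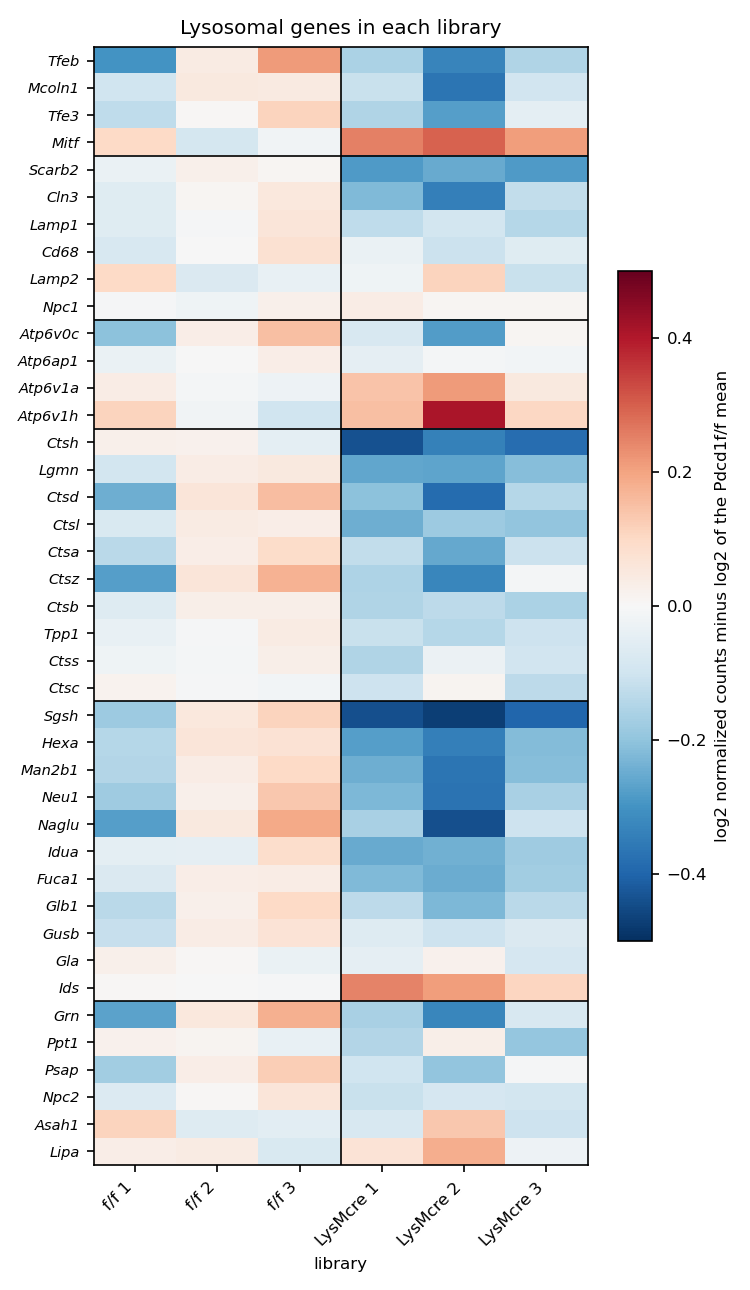
Normalized counts of each of the 41 genes (rows, grouped by role) in each library (columns), as the log2 difference from the Pdcd1f/f mean, with red above and blue below. Pdcd1f/f replicate 1 is blue in many rows in which replicates 2 and 3 are red, and Ctsh, Sgsh and Scarb2 are blue in all 3 Pdcd1f/fLysMcre libraries.

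Proteases made up most of the lysosomal transcripts. Per kilobase of exonic length, the highest mean levels in Pdcd1f/f TAMs were those of Ctss (91734 normalized counts per kb), Lgmn (63489), Psap (59039), Ctsb (52324) and Cd68 (42643), and the lowest were those of Tfeb (115), Mcoln1 (291), Sgsh (478) and Tfe3 (550). Of the genes past the threshold, Lgmn, Ctsh, Scarb2 and Sgsh ranked 2, 20, 28 and 39 of the 41 by this level.

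All 10 proteases had a log2 fold change below 0, with a median of -0.16, and 2 passed the threshold. Ctsh (ENSMUSG00000032359, chr9:90054152-90076089, GRCm38) had 18021, 17940 and 17106 normalized counts in Pdcd1f/f TAMs against 13083, 13987 and 13598 in Pdcd1f/fLysMcre TAMs, here and below in the order of replicates 1, 2 and 3. The groups did not overlap, and the log2 fold change was -0.38 (SE 0.06, adjusted p = 0.00511). It kept an adjusted p below 0.05 when any library was left out except Pdcd1f/fLysMcre replicate 1, without which it was 0.0574. Lgmn (ENSMUSG00000021190, chr12:102394084-102439813) had 138550, 151296 and 152612 normalized counts in Pdcd1f/f and 123238, 122933 and 127210 in Pdcd1f/fLysMcre libraries, with Pdcd1f/f replicate 1 the nearest to the other genotype. Its log2 fold change was -0.24 (SE 0.06, adjusted p = 0.0497). The adjusted p of Lgmn was 0.00662 without Pdcd1f/f replicate 1, 0.256 and 0.175 without Pdcd1f/f replicates 2 and 3, and 0.190, 0.128 and 0.0867 without Pdcd1f/fLysMcre replicates 1, 2 and 3, and with the replicate number as a block it was 0.0622.

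In a further 4 proteases the libraries did not overlap although the adjusted p missed the threshold. Ctsl, a cysteine endopeptidase, had 127048, 137656 and 136843 normalized counts in Pdcd1f/f and 113017, 117858 and 116746 in Pdcd1f/fLysMcre libraries (log2 fold change -0.21, SE 0.06, adjusted p = 0.0734). Ctsb, which acts as both endopeptidase and dipeptidyl carboxypeptidase, had 302937, 323537 and 323372 against 285036, 289185 and 283739 (-0.14, SE 0.06, adjusted p = 0.161). Ctss, the cathepsin that degrades the invariant chain of MHC class II, had 122737, 123811 and 127176 against 112245, 122165 and 116569 (-0.09, SE 0.06, adjusted p = 0.386). In Ctss the gap between the groups was narrow, with Pdcd1f/fLysMcre replicate 2 just under Pdcd1f/f replicate 1. Tpp1, a tripeptidyl peptidase, had 18306, 18683 and 19345 against 17375, 17011 and 17457 (-0.12, SE 0.06, adjusted p = 0.232). Part of the exons of Ctsl overlaps another gene model on each strand. The exons of Ctsd share 808 of 2351 bases with Gm49369 on the same strand, those of Ctsb 774 of 6051 with Fdft1 on the other strand (384 to 499 counts in a library), and those of Ctsa 495 of 4715 with Pltp on the other strand (26678 to 32516 counts). Of the 41 genes, 13 share exonic bases with a gene on the other strand and 3 on the same strand, and the strand setting of the counting is not given in the sources used here. The libraries of the other 4 proteases, Ctsa, Ctsc, Ctsd and Ctsz, overlapped, with log2 fold changes between -0.24 and -0.07. The aspartyl protease gene Ctsd had 43985, 54247 and 57984 normalized counts in Pdcd1f/f and 45190, 39930 and 47221 in Pdcd1f/fLysMcre libraries (adjusted p = 0.188).

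**Figure D3:**
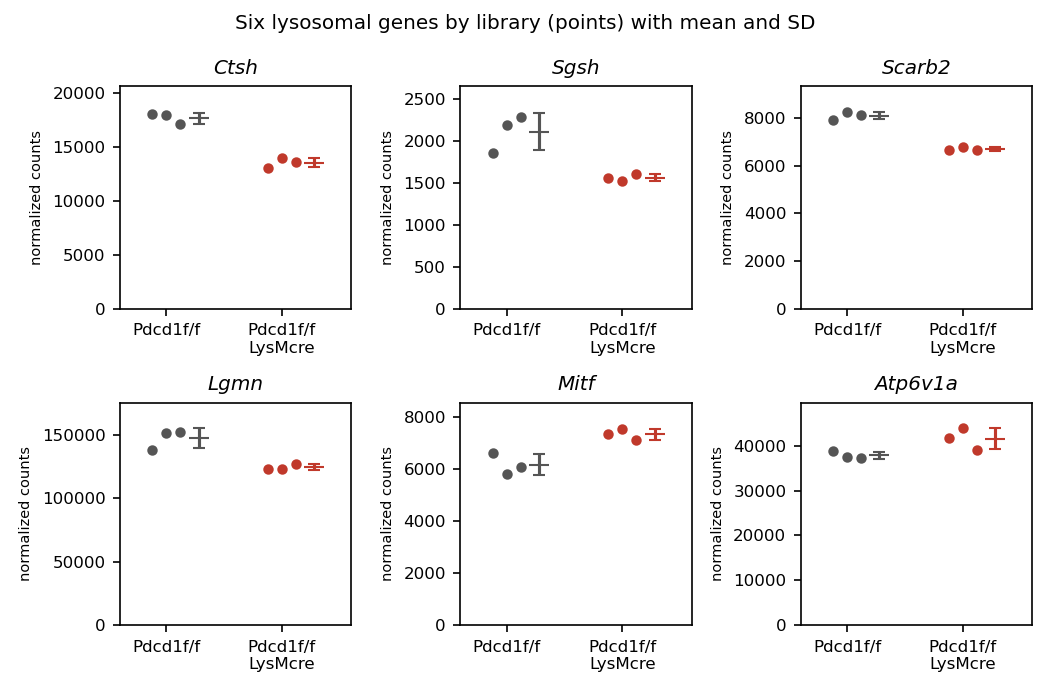
Normalized counts (y axis, from 0) of 6 genes in each library (points, replicates 1, 2 and 3 from left to right), with mean and SD (n = 3). Ctsh, Sgsh, Scarb2 and Lgmn are lower in all Pdcd1f/fLysMcre libraries, and Mitf and Atp6v1a are higher, in both cases without overlap.

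Glycosidases and sulfatases, which strip sugars and sulfate from glycoproteins, glycolipids and glycosaminoglycans, had a median log2 fold change of -0.22 (-0.13 after the correction for GC content and length). Of the 11 genes 10 were below 0 and 1 passed the threshold. Sgsh (ENSMUSG00000005043, chr11:119343425-119355536) had 1859, 2185 and 2280 normalized counts in Pdcd1f/f and 1553, 1520 and 1603 in Pdcd1f/fLysMcre libraries. The groups did not overlap, the log2 fold change was -0.43 (SE 0.09, adjusted p = 0.0171), and the Pdcd1f/f libraries were more dispersed (SD 221, n = 3) than the Pdcd1f/fLysMcre libraries (SD 41.6). Its adjusted p was 5.26e-04 without Pdcd1f/f replicate 1 and 0.0401 without Pdcd1f/fLysMcre replicate 3, and between 0.0690 and 0.116 without Pdcd1f/f replicate 2 or 3 or Pdcd1f/fLysMcre replicate 1 or 2. The exons of Sgsh share 955 of 4414 bases with Card14 on the other strand, which had 7 to 17 counts in a library.

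The libraries of 4 other glycosidases were lower without overlap. Hexa, the alpha subunit of beta-hexosaminidase, had 24966, 28686 and 28955 normalized counts in Pdcd1f/f and 22745, 21701 and 23712 in Pdcd1f/fLysMcre libraries (log2 fold change -0.28, SE 0.07, adjusted p = 0.0576, and 0.0478 with the replicate number as a block). Man2b1, the lysosomal alpha-mannosidase, had 18054, 20529 and 21393 against 16875, 15510 and 17236 (-0.27, SE 0.08, adjusted p = 0.0688). Fuca1, an alpha-fucosidase, had 3732, 4011 and 4017 against 3361, 3299 and 3478 (-0.21, SE 0.06, adjusted p = 0.0778). In each of these, Pdcd1f/f replicate 1 was the lowest of its group. Idua, which removes iduronic acid from heparan and dermatan sulfate, had 2254, 2262 and 2481 against 1958, 1977 and 2061 (-0.22, SE 0.07, adjusted p = 0.0876). Ids, the sulfatase that acts on the same glycosaminoglycans, lay on the other side, with 3396, 3379 and 3369 normalized counts in Pdcd1f/f and 4016, 3905 and 3640 in Pdcd1f/fLysMcre libraries. Its log2 fold change was 0.19 (SE 0.06, adjusted p = 0.102). Of the heparan sulfate genes Sgsh, Idua, Naglu and Ids, only Ids lay above 0. The libraries of Neu1, Naglu, Glb1, Gusb and Gla overlapped, with log2 fold changes between -0.25 and -0.03.

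Of the 6 membrane proteins, Scarb2 passed the threshold. Scarb2 (ENSMUSG00000029426, chr5:92441314-92506833) had 7936, 8249 and 8161 normalized counts in Pdcd1f/f and 6677, 6806 and 6661 in Pdcd1f/fLysMcre libraries, with a gap between the groups wider than the range within either. The log2 fold change was -0.27 (SE 0.06, adjusted p = 0.0214). Its adjusted p was 0.00631 without Pdcd1f/f replicate 1, 0.149 and 0.0862 without Pdcd1f/f replicates 2 and 3, and 0.122, 0.0515 and 0.0658 without Pdcd1f/fLysMcre replicates 1, 2 and 3. Cln3, a membrane protein of late endosomes and lysosomes whose loss causes a neuronal storage disease, had 3464, 3636 and 3745 against 3104, 2853 and 3322 (-0.22, SE 0.07, adjusted p = 0.101). Lamp1 had 59102, 61364 and 64317 against 56398, 57855 and 55778 (-0.12, SE 0.06, adjusted p = 0.248). Both were lower without overlap. Lamp2, the glycoprotein required for chaperone-mediated autophagy in 1 of its splice forms, had 27464, 24398 and 24989 against 25210, 27636 and 23695 (log2 fold change -0.0039, adjusted p = 0.980), and was lower after the correction for GC content and length (-0.13, adjusted p = 0.0265). The libraries of Lamp2 overlapped, as did those of Npc1, the membrane exporter of cholesterol (log2 fold change 0.02, SE 0.06), and of the macrophage marker Cd68 (-0.06, SE 0.06).

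Among the regulators, the listed MiT factors differed in sign in the counts as deposited. Mitf had 6601, 5792 and 6084 normalized counts in Pdcd1f/f and 7328, 7546 and 7111 in Pdcd1f/fLysMcre libraries, higher in each, with a log2 fold change of 0.25 (SE 0.07, adjusted p = 0.0528 with edgeR and 0.0177 with DESeq2). Its adjusted p (edgeR) was 0.00733 without Pdcd1f/f replicate 1 and between 0.0782 and 0.260 with any other library left out. Tfeb had 531, 673 and 759 against 587, 520 and 590 (-0.21, SE 0.13, adjusted p = 0.355), and Tfe3 had 4665, 5118 and 5506 against 4590, 4214 and 4923 (-0.15, SE 0.08, adjusted p = 0.275). The libraries of Tfeb and Tfe3 overlapped. Without Pdcd1f/f replicate 1 Tfeb was lower (-0.34, adjusted p = 0.0302, edgeR). With any other library left out its adjusted p was between 0.342 and 0.788. Without Pdcd1f/f replicate 1 and Pdcd1f/fLysMcre replicate 2 together, Tfeb (-0.28, adjusted p = 0.0288) and Tfe3 (-0.16, adjusted p = 0.0436) were lower and Mitf was higher (0.28, adjusted p = 6.44e-04, edgeR). After the correction for GC content and length Mitf was at 0.16 (adjusted p = 0.0117), Tfeb changed sign to 0.02 (adjusted p = 0.888) and Tfe3 was at -0.10 (adjusted p = 0.159, edgeR). Tfec, the MiT gene of the wider list, was at -0.12 in the counts as deposited (adjusted p = 0.432, edgeR). It was lower after the correction (-0.23, adjusted p = 0.00179, edgeR). Mcoln1, the lysosomal calcium channel, had 2053, 2277 and 2269 against 2036, 1709 and 2059 (-0.18, SE 0.09, adjusted p = 0.231), again with overlap. Activity of these factors depends on their phosphorylation and location, which these data do not measure.

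The proton pump genes lay on both sides of 0. The 4 listed genes had a median log2 fold change of 0.06, with 2 above 0, 2 below and none past the threshold with edgeR and the filter on all 6 libraries or with DESeq2. Atp6v1h had an unadjusted p of 0.0268, and an adjusted p of 0.0331 without the filter and of 0.0345 without Pdcd1f/f replicate 1. Atp6v1a, the catalytic subunit of the cytosolic V1 sector, had 38785, 37546 and 37182 normalized counts in Pdcd1f/f and 41757, 43892 and 39126 in Pdcd1f/fLysMcre libraries, higher without overlap (0.14, SE 0.06, adjusted p = 0.209). Atp6v1h, a regulatory V1 subunit, had 11495, 10500 and 9925 against 11817, 14121 and 11438, where Pdcd1f/f replicate 1 lay within the Pdcd1f/fLysMcre range (0.23, SE 0.09, adjusted p = 0.150). Atp6v0c, which forms the proteolipid ring of the V0 sector, had a log2 fold change of -0.11 (SE 0.10), and the accessory subunit Atp6ap1 one of -0.02 (SE 0.06), both with overlap. Of 14 further V-ATPase genes none passed the threshold with edgeR and 1 was higher with DESeq2 (4.94% of all genes), 6 lay below 0 (50.4% of all genes), and the median was 0.03. After the correction for GC content and length the values for Atp6v1a and Atp6v1h were 0.05 and 0.09 (adjusted p = 0.378 and 0.219, edgeR). Of the 14 further genes Atp6v0d2, Atp6v1b2 and Atp6v1d were then higher and Atp6v0a1 lower (10.3% and 7.97% of all genes), and their median was 0.06.

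None of the 6 genes of lipid breakdown and other functions passed the threshold with edgeR on all 6 libraries of the counts as deposited or with DESeq2. Ppt1 was lower after the correction for GC content and length (-0.18, adjusted p = 0.00555), and the lowest unadjusted p as deposited was 0.119, that of Grn (edgeR). Npc2, the soluble partner of NPC1 in cholesterol export, was lower without overlap, with 49073, 51665 and 53627 normalized counts in Pdcd1f/f and 47594, 48600 and 48298 in Pdcd1f/fLysMcre libraries (-0.09, SE 0.06, adjusted p = 0.361). Grn, which encodes progranulin, had 76826, 95880 and 104660 against 82718, 73705 and 87438 (-0.18, SE 0.11, adjusted p = 0.325), and Pdcd1f/f replicate 1 lay within the Pdcd1f/fLysMcre range. Without that library Grn was called lower (-0.31), as were 11.5% of all genes. Without Pdcd1f/f replicate 1 and Pdcd1f/fLysMcre replicate 2 together, Grn, Npc2, Ppt1 and Psap were called lower, as were 13.1% of all genes. The libraries of Psap, the precursor of the saposins, Asah1, an acid ceramidase, Ppt1, a thioesterase, and Lipa, the acid lipase that hydrolyses cholesteryl esters, overlapped, with log2 fold changes between -0.10 and 0.08.

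The 41 genes took 3.61% ± 0.173 of all counts in Pdcd1f/f libraries and 3.26% ± 0.058 in Pdcd1f/fLysMcre libraries (SD, n = 3). The values in replicates 1, 2 and 3 were 3.41%, 3.68% and 3.74% against 3.23%, 3.22% and 3.33%, without overlap. Proteases took 2.08% ± 0.085 against 1.84% ± 0.027, and Ctsb alone 0.674% ± 0.0249 against 0.603% ± 0.00298. Glycosidases and sulfatases took 0.236% ± 0.0153 against 0.207% ± 0.0071, and membrane proteins 0.348% ± 0.00883 against 0.325% ± 0.00167. The share of the 4 proton pump genes was 0.181% ± 0.000814 against 0.187% ± 0.00388, higher without overlap. The shares of the lipid group and of the regulators overlapped between the genotypes. No test was made of these sums, and they are not corrected for GC content.

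**Figure D4:**
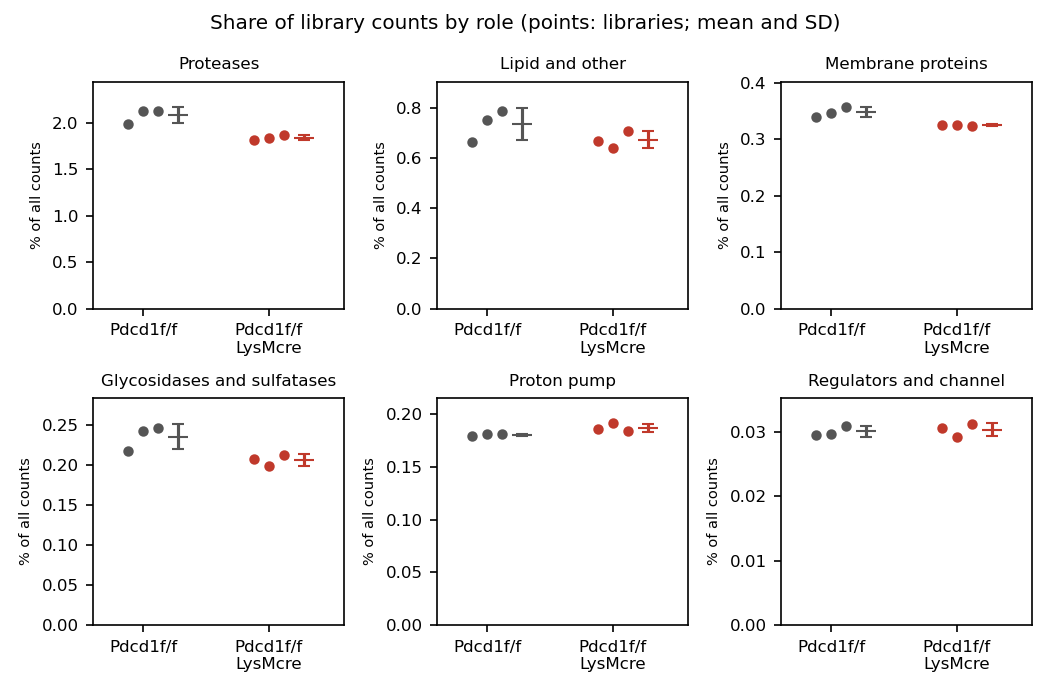
Share of all counts of a library (y axis, %, from 0) taken by each role group, with a point for each library and the mean and SD (n = 3) beside them. Proteases, membrane proteins, and glycosidases and sulfatases are lower in the Pdcd1f/fLysMcre libraries, the proton pump is higher, and the other groups overlap.

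The summed level of the 6 macrophage markers was 4677 to 5329 CPM in Pdcd1f/f and 4076 to 4357 CPM in Pdcd1f/fLysMcre libraries, and 3 of the 6 passed the threshold with lower levels (C1qa -0.61, Adgre1 -0.38 and Csf1r -0.32 on the log2 scale). They were lower after the correction for GC content and length too (-0.38, -0.43 and -0.22), and passed the threshold in 3, 4 and 2 of the 6 fits with a library left out. The levels of Cd14, in contrast, were higher without overlap (0.15, adjusted p = 0.163, edgeR), and 0.25 with an adjusted p of 1.02e-04 after the correction for GC content and length. In bulk RNA, fewer cells of a type and less RNA per cell cannot be told apart. The 7 neutrophil markers summed to 139 to 144 CPM in Pdcd1f/f and 115 to 120 CPM in Pdcd1f/fLysMcre libraries, with 2 lower (Csf3r and Mmp8) and Ly6g under 10 counts in each library. S100a8 and S100a9 had log2 fold changes above 0 (0.23 and 0.12, adjusted p = 0.220 and 0.413, edgeR), and S100a8 was higher after the correction for GC content and length (adjusted p = 0.0457). Retnlg, lower without overlap at 17 to 47 counts in a library (-0.95, not past the threshold), was lower after it (-0.98, adjusted p = 0.0488), as were Csf3r and Mmp8. The 3 endothelial markers summed to 39.8 to 42.5 against 31.9 to 34.4 CPM, with 1 lower (Pecam1, -0.62). The values of Cdh5 (-0.01) and Kdr (0.02) lay near 0, with overlap. The 5 fibroblast and stromal markers summed to 61.4 to 66.5 against 57.1 to 63.6 CPM, with 1 lower (Col1a2). The 6 dendritic cell markers summed to 5.28 to 6.88 against 6.87 to 8.35 CPM, with none past the threshold and Xcr1 and Clec9a under 10 counts. The 4 dendritic cell markers tested lay above 0, with Flt3 higher without overlap (0.67) and Zbtb46 at 0.69, at 29 to 100 counts in a library. The 6 T cell markers summed to 12.9 to 14.5 against 11.7 to 13.9 CPM, most of it Cd4 (-0.09, with overlap), with Cd3d, Cd3g and Cd8a under 10 counts. Trac was higher without overlap at 28 to 61 counts in a library (0.50, adjusted p = 0.311, edgeR). Markers of B cells, NK cells and erythroid cells summed to less than 1 CPM in each library, and the mast cell and basophil markers to 3.58 to 5.70 CPM, with Mcpt8 at 0. The part of these differences in the values of the lysosomal genes was not tested.

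The libraries differed in how their counts depended on GC content. For 11480 genes, each gene's deviation was taken from its mean over the 3 libraries of the same genotype. Its Spearman correlation with GC content was -0.72, 0.47 and 0.66 for Pdcd1f/f and 0.17, -0.65 and 0.66 for Pdcd1f/fLysMcre TAMs. These values compare libraries within a genotype and not the genotypes. Across the 41 lysosomal genes, whose GC content ran from 37.6% to 63.2%, the log2 fold change fell as GC content rose (Spearman correlation -0.64), as it did to a lesser degree across all 14473 genes with a known GC content (-0.36). Genes of a sample share its libraries, so these values are descriptions. The 12 lysosomal genes below 46% GC had a median log2 fold change of 0.01, the 12 between 46% and 52% one of -0.15, and the 17 at or above 52% one of -0.21. When each library's counts were corrected for GC content and length, the correlation among the 41 genes was 0.04 and the same 3 medians were -0.07, -0.14 and -0.06. The correction fits and removes each library's dependence on GC content, so a correlation near 0 is largely built in.

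After that correction 15 of the 41 genes were lower and 1 was higher (against 7.97% lower and 10.3% higher among all genes), and the median was -0.10. The genes lower were Ctsb, Ctsc, Ctsh, Ctsl, Lgmn, Tpp1, Fuca1, Hexa, Man2b1, Neu1, Sgsh, Cln3, Lamp2, Scarb2 and Ppt1, and the gene higher was Mitf. Of all genes called, 44.6% were higher in the counts as deposited and 56.4% after the correction. Ctsh (-0.37), Scarb2 (-0.34), Sgsh (-0.30) and Lgmn (-0.18) were among them. Tfeb, Cd68, Ctsz, Psap and Atp6ap1 changed from below to above 0, and Npc1 and Lipa from above to below, with none of the 7 past the threshold in either. The values for Atp6v1a (0.05), Atp6v1h (0.09) and Ids (0.08) were smaller than in the counts as deposited, and the 4 proton pump genes had a median of 0.04. Without Pdcd1f/f replicate 1, 19 of the 41 genes were lower and 2 higher (11.5% and 10.1% of all genes). With another library left out, 1 was lower without Pdcd1f/f replicate 2, Pdcd1f/f replicate 3 or Pdcd1f/fLysMcre replicate 2, 2 without Pdcd1f/fLysMcre replicate 3, none without Pdcd1f/fLysMcre replicate 1, and none was higher. Of all genes, the shares lower and higher were then 1.01% and 0.607% without Pdcd1f/f replicate 2, 1.5% and 0.966% without Pdcd1f/f replicate 3, and 0.966% and 0.566%, 1.48% and 0.994%, and 2.13% and 1.59% without Pdcd1f/fLysMcre replicates 1, 2 and 3. Without both libraries of negative correlation with GC content, Pdcd1f/f replicate 1 and Pdcd1f/fLysMcre replicate 2, 27 were lower (13.1% of all genes) and 3, Mitf, Atp6v1h and Ids, higher (12.8%).

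**Figure D5:**
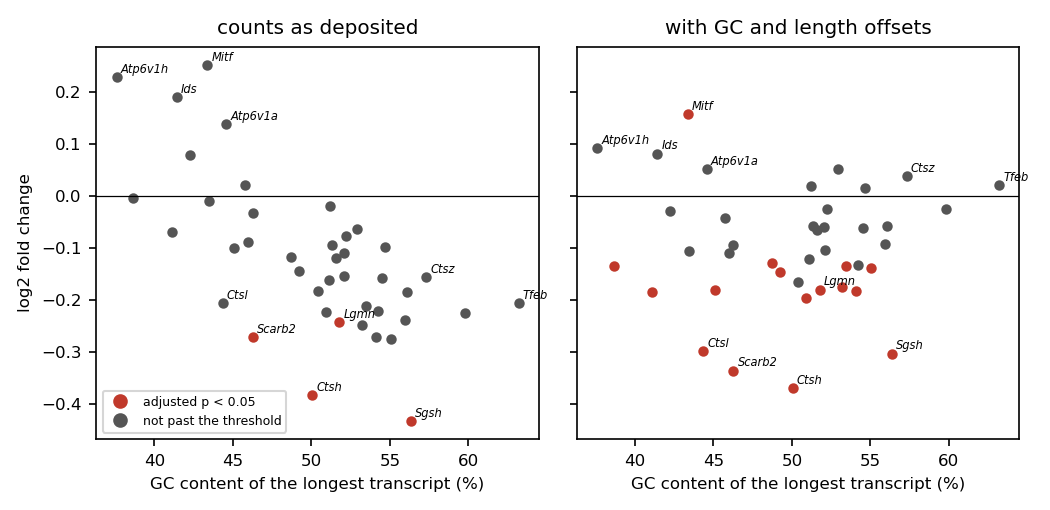
Log2 fold change (y axis) of the 41 lysosomal genes against the GC content of their longest transcript (x axis, %), for the counts as deposited (left) and after correction for GC content and length (right). The downward slope on the left, a Spearman correlation of -0.64, is absent on the right (0.04), where 15 of the genes are called lower (red) and Mitf is called higher. The correction takes out each library's dependence on GC content, so the loss of the slope is largely built in.

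In the wider list of 91 lysosome and autophagy genes that are not among the 41, 1 gene was higher (1.10%) and 7 lower (7.69%), against 2.42% and 3.01% of all genes, and the median log2 fold change was -0.09. After the correction for GC content and length 10 were higher and 17 lower, against 10.3% and 7.97% of all genes, and the median was -0.03. The higher gene was Arsb. This gene, which encodes the sulfatase of dermatan and chondroitin sulfate, had 5920, 5775 and 5515 normalized counts in Pdcd1f/f and 8157, 8017 and 8339 in Pdcd1f/fLysMcre libraries (0.51, SE 0.06, adjusted p = 9.46e-04), and stayed past the threshold whichever library was left out. The lower genes were the phospholipase gene Pla2g15 (-0.48), the cathepsin gene Ctsf (-0.45), the autophagy kinase gene Ulk1 (-0.43), the folliculin gene Flcn (-0.43), whose product regulates TFE3 and TFEB through Rag GTPases, Dpp7 (-0.29), Gabarapl1 (-0.28) and Pcyox1 (-0.26). Without Pdcd1f/f replicate 1, 22 of the 91 were lower and 6 higher, against 11.5% and 10.1% of all genes. Without Pdcd1f/f replicate 2 or 3 or Pdcd1f/fLysMcre replicate 1 or 2 none was lower and 1 was higher, and without Pdcd1f/fLysMcre replicate 3, 4 were lower and 1 higher, against 0.966% to 2.13% lower and 0.566% to 1.59% higher among all genes.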

How the data were processed

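RNA-seq of sorted TAMs was analysed in 6 libraries, 3 of each genotype, grouped by the labels. Raw counts for each Ensembl gene (release 98, GRCm38) were deposited, which the authors made from paired-end 42-nt reads of stranded polyA libraries with FastQC 0.11.5, cutadapt 2.5, STAR 2.7.3a and featureCounts of Subread 1.6.2, as the methods and the submitters' processing notes give them. A second deposited table holds a normalized signal for 16552 genes, the counts divided by the DESeq2 1.24.0 size factor of the library (0.895 to 1.08), and these are the normalized counts given here. The strand setting of the counting is not given in the sources used here. Genes with at least 10 counts in at least 3 libraries were tested on the raw counts with edgeR 4.0.16 (R 4.3.3; TMM, glmQLFit with robust estimation, glmQLFTest, two-sided, Benjamini-Hochberg adjustment, threshold 0.05), with a common biological coefficient of variation of 8.92%. Counting error depends on a gene's own counts, which were at least 546 in a library for each of the 41 genes.

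The 41 genes, the wider list and the marker lists were chosen with earlier results of these data known. A gene of the wider list and a macrophage marker are not reported here and were left out of the counts and sums. All 41 are named, those past the threshold and those without overlap between the libraries in full, and genes of the wider list are named where they passed the threshold. Symbols, lengths and GC content came from GENCODE M21 (GRCm38) and promoters from RefSeq. Alternatives were RLE size factors, library size alone, filterByExpr, at least 1 count in any library, DESeq2 1.42.0, offsets for GC content and length, fitted by loess within each library (span 0.5, 14473 genes), the replicate number as a block, and each library left out. Leaving out Pdcd1f/f replicate 1 and Pdcd1f/fLysMcre replicate 2 together was chosen after seeing the data. The fits were tested on simulated data.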

Additional observations from a re-analysis of the deposited data

How the results depend on the processing

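Under RLE size factors and filterByExpr the same 4 genes (Ctsh, Lgmn, Scarb2 and Sgsh) were lower and none higher, and under library size alone Hexa was added. Requiring only 1 count in any library gave 9 lower and 2 higher of the 41 genes, 12 and 4 of the 91 genes of the wider list, and 1951 of all genes, against 787 in the main comparison. DESeq2 gave 9 and 1, 11 and 4, and 1533. The GC and length offsets gave 15 and 1, 17 and 10, and 2642, and with the replicate block added 15 and 1, 17 and 9, and 2738. Leaving out both libraries of negative correlation with GC content, a choice made after seeing the data, gave 27 and 3, 31 and 9, and 3752. The cause of these differences was not tested.

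With single libraries left out, all genes called ranged from 222 (without Pdcd1f/fLysMcre replicate 1) to 3128 (without Pdcd1f/f replicate 1), with 234 and 357 when Pdcd1f/f replicate 2 or 3 was left out, and 359 and 540 for Pdcd1f/fLysMcre replicate 2 or 3. Of the 41 genes, 0 to 19 were lower and 0 to 2 higher: none was lower without Pdcd1f/fLysMcre replicate 1, 1 (Ctsh) without Pdcd1f/f replicate 2 or 3 or Pdcd1f/fLysMcre replicate 2, and 2 (Ctsh and Sgsh) without Pdcd1f/fLysMcre replicate 3. In the wider list 0 to 22 were lower and 1 to 6 higher. The median log2 fold change of the 41 genes ranged from -0.207 (without Pdcd1f/f replicate 1) to -0.0880 (without Pdcd1f/f replicate 3). Fewer libraries leave fewer degrees of freedom. The summed share of counts was lower in Pdcd1f/fLysMcre libraries by 0.288 to 0.449 percentage points.

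Some genes not past the threshold in the main comparison changed sign. With the offsets, without and with the replicate block, Tfeb was at 0.0205 and 0.0191, Cd68 at 0.0516 and 0.0520, Atp6ap1 at 0.0189 and 0.0188, Ctsz at 0.0386 and 0.0403, Psap at 0.0157 and 0.0162, Npc1 at -0.0419 and -0.0405, and Lipa at -0.0282 and -0.0271. With single libraries left out, Lamp2 ranged from -0.0648 to 0.0460 and Asah1 from -0.0887 to 0.0435, both above 0 without Pdcd1f/f replicate 1 or Pdcd1f/fLysMcre replicate 1 or 3.

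With the replicate number as a block, 4 of the 41 genes were lower, with Hexa in place of Lgmn, and 1016 of all genes were called. The labels do not say that a number pairs libraries. The correlations of same-numbered libraries' deviations from their genotype mean were -0.01, -0.09 and 0.22. Those of differently numbered libraries ran from -0.25 to 0.23. With 3 libraries in each genotype, these values cannot show whether the libraries were paired.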
